A study of Mus musculus with 22 samples.

Results

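Microtubules are built from tubulins and held in order by structural microtubule-associated proteins. The genes described here are among the main ones of both kinds in brain. The 10 genes were chosen by name, as 3 alpha tubulins (Tuba1a, Tuba1b and Tuba4a), 5 beta tubulins (Tubb2a, Tubb2b, Tubb3, Tubb4a and Tubb5) and the structural proteins Map2 and Mapt, out of 37786 genes in the count table. The rule names the genes and uses no threshold on a measured value. All 10 genes were found in the table and had 10 or more counts in every mouse.

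The anterior cingulate cortex (ACC) of 22 adult male wildtype C57BL/6J mice was dissected and its RNA sequenced as bulk tissue. The 12 controls and the 10 stimulated mice carried the same manipulation, a bilateral injection of AAV5-CaMKIIa-ChR2(H134R)-EYFP in the basolateral amygdala (BLA), followed by a unilateral optic fibre cannula in the ACC and single housing. In stimulated mice, light was given to BLA terminals in the ACC over 9 sessions, and in controls the light stayed off. The CaMKIIa promoter limits channelrhodopsin mostly to excitatory neurons of the injected region, the optic fibre was placed on 1 side, and the ACC of both sides was sampled. In such bulk samples, fewer cells of a type and less RNA per cell cannot be told apart.

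Alpha and beta tubulin join as dimers, and the dimers stack into the hollow, polar filaments that carry cargo along axons and dendrites. Each class has several genes whose products differ mainly in the acidic tail at the C-terminal end, which faces outward and is where polyglutamate chains are added and many motors and associated proteins bind. In neurons, the product of Map2 lies mostly along dendritic microtubules and that of Mapt, tau, mostly along axonal ones.

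The coding ends of 8 of the genes are shown because in the 6 tubulins among them they hold the acidic tails, and because stretches that 2 genes share cannot be assigned to 1 of them from short reads. Each sequence is the last 60 coding bases before the stop codon, read 5′ to 3′ on the strand of the gene from the annotated transcripts (GENCODE M21, GRCm38), with the in-frame glutamate codons GAA and GAG in capitals. That of the alpha tubulin Tuba4a lies on the minus strand at chr1:75215625-75215684. The beta ends lie on the minus strand at chr13:34074471-34074530 (Tubb2a), chr13:34127474-34127533 (Tubb2b), chr17:57080693-57080752 (Tubb4a) and chr17:35834985-35835044 (Tubb5), and on the plus strand at chr8:123421620-123421679 (Tubb3). Those of the associated proteins lie on the plus strand at chr1:66438945-66439004 (Map2) and chr11:104328125-104328184 (Mapt).
Tuba4a: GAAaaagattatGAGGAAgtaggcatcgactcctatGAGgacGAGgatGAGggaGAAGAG
Tubb2a: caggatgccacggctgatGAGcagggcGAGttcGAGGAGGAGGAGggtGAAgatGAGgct
Tubb2b: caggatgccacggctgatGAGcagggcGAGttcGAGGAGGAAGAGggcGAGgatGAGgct
Tubb3: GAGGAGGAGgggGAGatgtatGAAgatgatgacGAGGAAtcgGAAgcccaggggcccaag
Tubb4a: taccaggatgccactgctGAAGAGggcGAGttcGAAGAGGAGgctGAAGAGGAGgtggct
Tubb5: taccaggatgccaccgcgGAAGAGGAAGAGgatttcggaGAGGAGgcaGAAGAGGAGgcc
Map2: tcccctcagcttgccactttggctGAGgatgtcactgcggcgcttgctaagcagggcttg
Mapt: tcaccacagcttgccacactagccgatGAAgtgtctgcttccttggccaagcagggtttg

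Glutamate took 8 or 9 of the last 20 codons in each of the 6 tubulins shown and 1 of 20 in Map2 and Mapt. The ends of Tubb2a and Tubb2b were identical at 95% of positions, whereas every other pair of the 5 beta tubulins lay between 41.3% and 79.4%. Over the whole coding sequence 2 pairs stood out, with 98.3% identity for Tuba1a and Tuba1b, 96.5% for Tubb2a and Tubb2b, and 81.3% to 85.1% for the other pairs within a class. The ends of Map2 and Mapt, which belong to the related repeat-domain family of associated proteins, were identical at 71.7% of positions.

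This likeness limits how reads are assigned. Only uniquely aligned reads were counted, and the reads were 50 bases long. Of the 50-base stretches of the annotated transcripts, 75.5% in Tuba1a and 75.1% in Tuba1b also occurred in another annotated gene. They were shared with each other (761 stretches), with Tuba1c and with several pseudogenes. In Tubb2a 49.6% and in Tubb2b 36.9% were shared, 712 of them with each other. In Tuba4a 35.4% were shared, nearly all with Stk16, a kinase gene on the opposite strand whose exons overlap those of Tuba4a by 1379 bases. In Tubb3, Tubb4a, Tubb5, Map2 and Mapt the share was at most 0.184%. Tuba1a and Tuba1b also overlap the exons of Gm49450 on their own strand. Gm49450 is not among the genes of the count table, so whether it affected the counting of their reads is not known. The levels of Tuba1a, Tuba1b, Tubb2a, Tubb2b and Tuba4a are therefore uncertain between each gene and its partners.

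Total counts ranged from 23090483 to 43668462 per mouse, and the 10 genes together took a mean of 0.534% (SD 0.0838) of the counts in controls and 0.556% (SD 0.0627) in stimulated mice. The libraries carry numbers 1 to 11 (6 controls, 4 stimulated mice) and 12 to 23 (6 and 6), with no number 7. These 2 runs of numbers stood far apart, with 68.1% of the 17524 genes tested differing between them at an adjusted p under 0.05, so the run entered the fit beside the group. The methods name batches of mice, but the labels do not say which libraries belong to which batch. Mitochondrial genes took on average 2.66% of the counts in numbers 1 to 11 and 1.32% in 12 to 23. By group they took 2.93% ± 1.40 in controls and 2.25% ± 0.429 in stimulated mice of numbers 1 to 11, and 1.46% ± 0.390 and 1.18% ± 0.314 in 12 to 23 (SD), and their part in the group differences was not tested. Neuron markers were plentiful in every mouse, with 12 of 12 past the count minimum and a summed level between 9758 and 16942 CPM.

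The main question was whether repeated activation of the BLA-ACC pathway changed the expression of microtubule genes in the ACC. None of the 10 genes differed between stimulated and control mice at an adjusted p under 0.05, where the background was 0.0% of all genes. The fit was that of edgeR's quasi-likelihood method, adjusted by Benjamini-Hochberg over all 17524 genes. The DESeq2 Wald test called 33 genes and limma voom 1 gene of all those tested at that threshold, and 0 of them were among the 10 genes. At an unadjusted p under 0.05 the edgeR fit placed 3 of the 10 genes, Tuba1a, Tubb2a and Tubb5, all higher in stimulated mice, beside a background of 11.5% of all genes in either direction and 6.05% higher. The fitted difference was positive for 8 of the 10 genes, with Tubb2b and Map2 the exceptions, and for 52.6% of all genes, whose median log2 fold change was 0.01. With limma voom, 6 of the 10 genes had an unadjusted p under 0.05, beside 16.3% of all genes.

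Among the alpha tubulins, Tuba1a, the main alpha tubulin of neurons that extend processes, lay between 310.3 and 503 CPM (counts scaled to a common library size, after TMM) in controls, with a median of 405. In stimulated mice it lay between 372 and 506 CPM, with a median of 437. The ranges overlapped, with the 6 controls of library numbers 12 to 23 below every stimulated mouse and the other 6 among them. The fitted difference was 0.16 ± 0.06 on the log2 scale (SE, edgeR adjusted p = 0.349, unadjusted 0.00905). Tuba1b, an alpha tubulin used by most cell types, lay between 91.4 and 144 CPM in controls (median 118) and between 98.4 and 142 CPM in stimulated mice (median 116). Its log2 difference was 0.07 ± 0.05 (SE, adjusted p = 0.545), and the groups overlapped nearly in full. Tuba4a, whose last codon shown above is a glutamate codon and not a tyrosine codon, lay between 757 and 1295 CPM in controls (median 923) and between 871 and 1288 CPM in stimulated mice (median 1103). Its log2 difference was 0.14 ± 0.09 (SE, adjusted p = 0.532). Over both runs, 8 of 10 stimulated mice lay above the control median. Against the control median of their run, 5 of 6 did in library numbers 12 to 23 and 1 of 4 in the others.

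Among the beta tubulins, Tubb2a, a main neuronal isotype, lay between 346 and 862 CPM in controls, with a median of 508, and between 457 and 862 CPM in stimulated mice, with a median of 652. The highest values of both groups were equal to 3 digits, while the lowest values came from controls. Its fitted log2 difference was the largest of the 10 genes in size, 0.26 ± 0.11 (SE, adjusted p = 0.389, unadjusted 0.0291). Tubb5, the beta tubulin common to most cells, lay between 375 and 878 CPM in controls (median 505) and between 474 and 792 CPM in stimulated mice (median 651). Here too 8 of 10 stimulated mice lay above the control median, and the log2 difference was 0.25 ± 0.11 (SE, adjusted p = 0.406, unadjusted 0.0350). Tubb3, the neuron-specific class III isotype, lay between 234 and 494 CPM in controls (median 301) and between 259 and 463 CPM in stimulated mice (median 383). Its log2 difference was 0.17 ± 0.11 (SE, adjusted p = 0.530), where the SD between mice within group and run was 0.27 on the log2 scale.

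Tubb4a, an isotype of mature brain that neurons and oligodendrocytes use, had the widest spread, from 723 to 1735 CPM in controls (median 1000.4) and from 852 to 1486 CPM in stimulated mice (median 1262). Control 9 gave the highest value. The log2 difference between groups was 0.07 ± 0.15 (SE, adjusted p = 0.870), and 0.17 ± 0.14 without controls 9 and 11 (SE, adjusted p = 0.767). Tubb2b, an isotype of developing neurons and glia, was the lowest of the 10 genes, between 24.3 and 59.0 CPM in controls (median 37.9) and between 23.6 and 48.0 CPM in stimulated mice (median 36.5). Its log2 difference was -0.04 ± 0.10 (SE, adjusted p = 0.908), and the 2 values above 50 were both controls (controls 1 and 2, with 57.5 and 59.0 CPM).

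Of the associated proteins, Map2 was the only gene beside Tubb2b with a negative fitted difference. It lay between 462 and 1149 CPM in controls (median 670.4) and between 433 and 995 CPM in stimulated mice (median 768). The stimulated median was thus above that of controls while the fitted difference, which compares mice within the runs, was -0.18 ± 0.09 on the log2 scale (SE, adjusted p = 0.467, unadjusted 0.0672). Within each run most stimulated mice lay below the control median of that run, 3 of 4 in numbers 1 to 11 and 5 of 6 in 12 to 23. Mapt lay between 276 and 530.4 CPM in controls (median 368) and between 291 and 556 CPM in stimulated mice (median 396), with a log2 difference of 0.14 ± 0.09 (SE, adjusted p = 0.550). Over all 22 mice, each of the 10 genes overlapped between the groups.

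**Figure D1:**
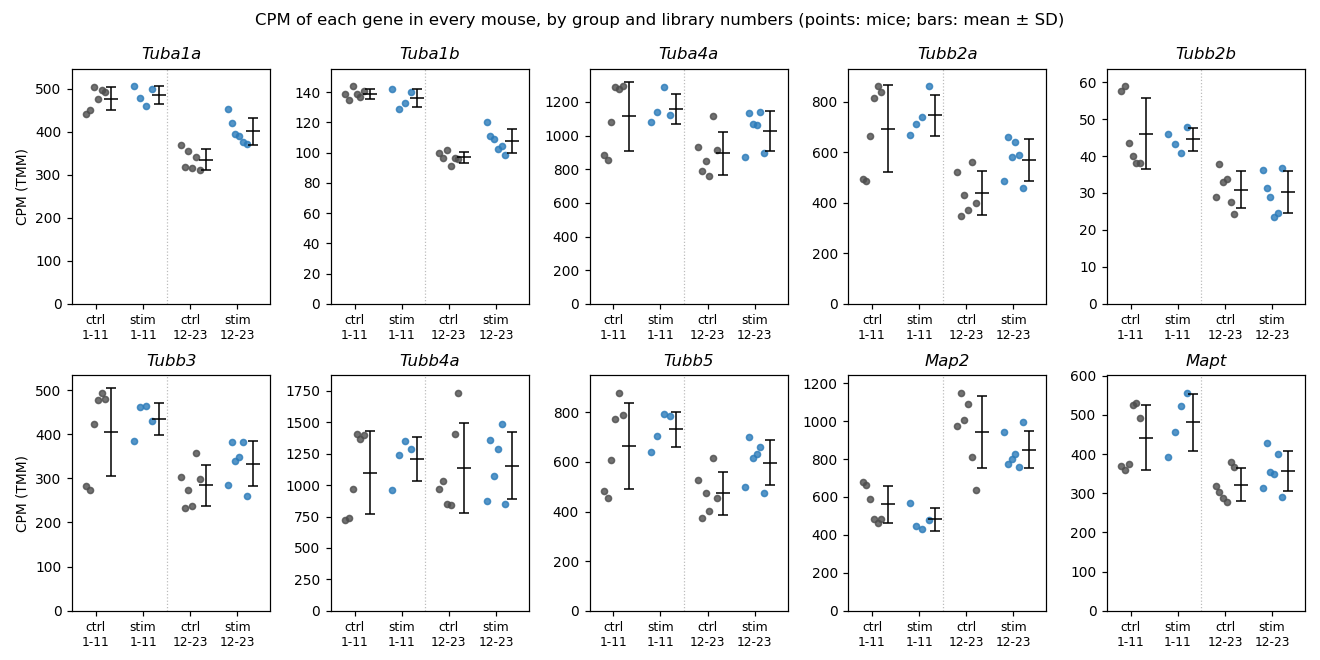
CPM (TMM-scaled, linear axes from 0) of each of the 10 genes in every mouse, with controls in grey and stimulated mice in blue, split by library numbers 1 to 11 and 12 to 23; points are mice and bars the mean ± SD. The runs of library numbers are further apart than the groups for most genes, and Tuba1a in numbers 12 to 23 is the only panel in which all stimulated mice of a run lie above all its controls (0.354% of all genes there).

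The values were next taken within each run of library numbers. In numbers 1 to 11, Tuba1a averaged 476 ± 26.2 CPM in 6 controls and 486 ± 20.9 CPM in 4 stimulated mice (SD), and the ranges overlapped. In numbers 12 to 23 it averaged 335 ± 24.4 CPM in 6 controls, from 310.3 to 370.1, and 401 ± 31.1 CPM in 6 stimulated mice, from 372 to 453. The 6 stimulated values were 421, 393, 389.5, 375, 372 and 453 CPM and the 6 control values 315, 341, 310.3, 370.1, 318 and 354 CPM, without overlap but with adjacent values at 370.1 and 372 CPM. In this run every stimulated mouse lay above every control for 1 of the 10 genes, beside a background of 0.354% of all genes. The log2 difference was 0.04 ± 0.08 in numbers 1 to 11 (SE, edgeR adjusted p = 0.979) and 0.23 ± 0.07 in numbers 12 to 23 (SE, adjusted p = 0.285, unadjusted 0.00818).

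Tubb2a and Tubb5 went the same way. Their log2 differences were 0.12 ± 0.17 and 0.15 ± 0.18 in numbers 1 to 11 (SE), and 0.35 ± 0.12 and 0.30 ± 0.12 in numbers 12 to 23 (SE, adjusted p = 0.307 and 0.351, unadjusted 0.0133 and 0.0258). In numbers 12 to 23 Tubb2a averaged 438 ± 86.4 CPM in controls and 569.6 ± 82.3 CPM in stimulated mice (SD, 6 each). There every stimulated mouse lay above the control median in Tuba1a, Tuba1b, Tubb2a and Tubb5, 4 of the 10 genes beside a background of 8.16%. These 4 genes are not independent. With group means removed, Tuba1a and Tuba1b correlated at 0.855 across this run and Tubb2a and Tubb5 at 0.969 (Pearson r). In numbers 1 to 11, 2 of 4 stimulated mice lay above the control median in Tuba1a, Tuba1b and Tubb2a, and 3 of 4 in Tubb5. At an unadjusted p under 0.05, 0 of the 10 genes were placed in numbers 1 to 11 (background 5.56% of all genes) and 3 of 10 in numbers 12 to 23 (background 12.4%, 4.06% higher).

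Whether the effect of stimulation differed between the runs was tested with an interaction term. At an adjusted p under 0.05, 0 of the 10 genes and 0.0% of all genes were called (edgeR). At an unadjusted p under 0.05, 2 of the 10 genes were placed beside a background of 8.01%, Tuba1a with a difference of 0.23 ± 0.10 on the log2 scale (SE, adjusted p = 0.602) and Tuba1b with 0.18 ± 0.09 (SE, adjusted p = 0.607). A different effect in the 2 runs was therefore not shown for any of these genes. With group as the only term of the fit, 0 of the 10 genes and 3.61% of all genes had an unadjusted p under 0.05, and Tuba1a, Tubb2a and Tubb5 had log2 differences of 0.10, 0.18 and 0.19. Without controls 9 and 11, the libraries with the highest oligodendrocyte marker levels, Tuba1a was at 0.13 (unadjusted p = 0.0351) and Map2 at -0.20 (unadjusted p = 0.0262, adjusted 0.606). Tubb2a at 0.19 and Tubb5 at 0.20 no longer passed that threshold (unadjusted p = 0.105 and 0.106), which 8.16% of all genes passed in that fit.

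**Figure D2:**
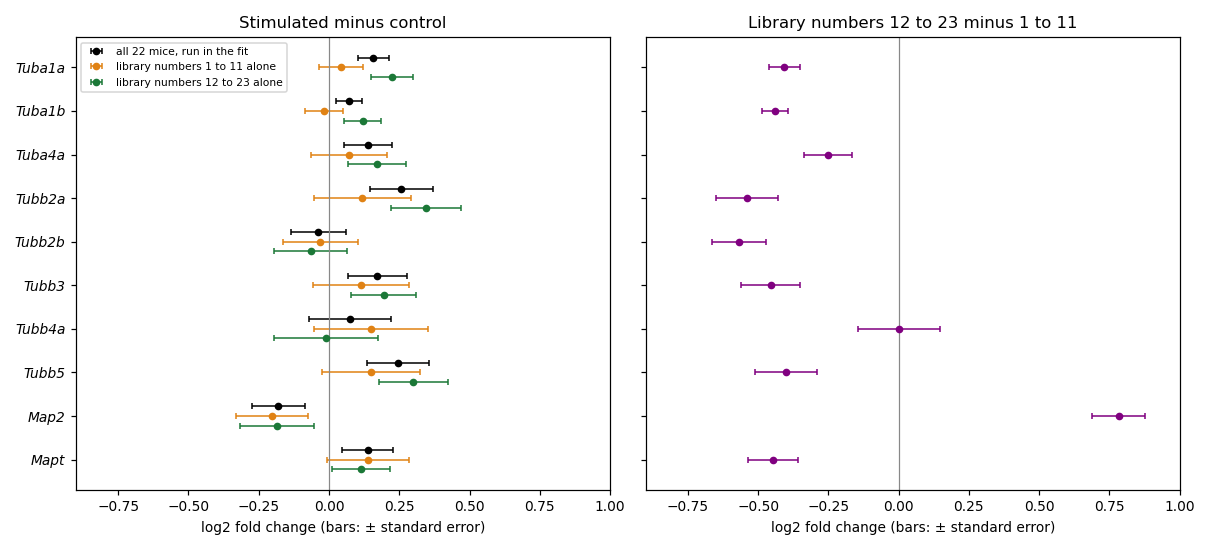
Log2 fold changes of the 10 genes with their standard errors. On the left, stimulated minus control in all 22 mice with the run in the fit (black) and in each run alone (orange and green) stays within 0.35 of 0; on the right, numbers 12 to 23 minus 1 to 11 reaches -0.57 for Tubb2b and 0.78 for Map2.

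Markers of other cells moved with the groups and stand beside these values. All 12 oligodendrocyte markers had negative fitted differences, each at an unadjusted p under 0.05 and 0 at an adjusted one (edgeR), with a median log2 difference of -0.69, and their summed level ran from 3266 to 20043 CPM in controls and from 2400.3 to 5885 CPM in stimulated mice. The values of 20043 and 14745 CPM belonged to controls 9 and 11, and the other 10 controls lay between 3266 and 6377 CPM. Without those 2 controls the median was -0.11, with 12 of 12 markers negative and 2 at an unadjusted p under 0.05. All 8 astrocyte markers had negative differences, 0 of them at an unadjusted p under 0.05, with a median of -0.13. Of the 12 neuron markers 8 had positive differences, with a median of 0.06. All 4 choroid plexus and ependymal markers tested were negative, 3 at an unadjusted p under 0.05 (edgeR), and 2 without controls 9 and 11. Their summed level was low, with medians of 16.7 CPM in controls and 11.4 CPM in stimulated mice. All 7 oligodendrocyte progenitor markers were negative, 2 at an unadjusted p under 0.05, and 0 without those controls. Of the 8 microglia markers 1 was negative, and of the 5 red cell markers 0. The part of these cells in the values of the tubulins was not tested.

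The 2 runs of library numbers stood further apart than the groups for 9 of the 10 genes, all but Tubb4a. At an adjusted p under 0.05, 9 of the 10 genes differed (edgeR), 8 lower and 1 higher in numbers 12 to 23, beside a background of 68.1% of all genes, 34.3% lower and 33.7% higher. All 3 alpha tubulins were lower, with Tuba1b at -0.44 ± 0.05 on the log2 scale (SE, adjusted p = 4.6e-09), Tuba1a at -0.41 ± 0.06 (SE, adjusted p = 3.9e-07) and Tuba4a at -0.25 ± 0.09 (SE, adjusted p = 0.0116). Tuba1b showed this most evenly, since it lay between 129 and 144 CPM in all 10 mice of numbers 1 to 11 and between 91.4 and 120.4 CPM in all 12 of the others.

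Of the beta tubulins, Tubb2b fell by 0.57 ± 0.10 on the log2 scale (SE, adjusted p = 1.1e-05) and Tubb2a by 0.54 ± 0.11 (SE, adjusted p = 0.00013). Tubb3 and Tubb5 fell by 0.45 and 0.40. Tubb4a did not follow the other tubulins, with means of 1142 and 1147 CPM in the 2 runs and a log2 difference of 0.00 ± 0.15 (SE). The associated proteins moved apart. Map2 was higher by 0.78 ± 0.09 on the log2 scale in numbers 12 to 23 (SE, adjusted p = 6.7e-08), from 529 ± 89.5 CPM to 897 ± 152 CPM (SD, n = 10 and 12). Mapt fell by 0.45 ± 0.09 (SE, adjusted p = 8.6e-05). The runs did not overlap in CPM for 2 of the 10 genes, Tuba1b and Tubb2b, beside a background of 26.1% of all genes.

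The difference between the runs moved with gene length over all genes tested. In 5 classes of equal size, from the fewest exon bases to the most, its median log2 value was -0.70, -0.26, 0.06, 0.34 and 0.47, while the median group difference was 0.05, 0.03, 0.02, -0.00 and -0.02. Tubb2a (1610 exon bases), Tuba1a (1803), Tubb3 (1868) and Tuba1b (1875) belong to the first class, and all 4 lay above its median. Tubb4a (2228) and Tubb2b (2294) belong to the second, and lay on either side of its median. Tubb5 (3327) and Tuba4a (3701) in the third class and Mapt (7531) in the last lay below the medians of genes of like length, and Map2 (16449) above. In 5 classes of GC content, the median run difference stayed between -0.07 and 0.01, while the median group difference was -0.067, -0.0096, 0.020, 0.044 and 0.048 from the lowest GC to the highest. Map2 (44.0% GC) belongs to the first of these classes and the other 9 genes (52.1% to 58.0%) to the last 2. The part of length and GC content in the values of single genes was not tested.

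**Figure D3:**
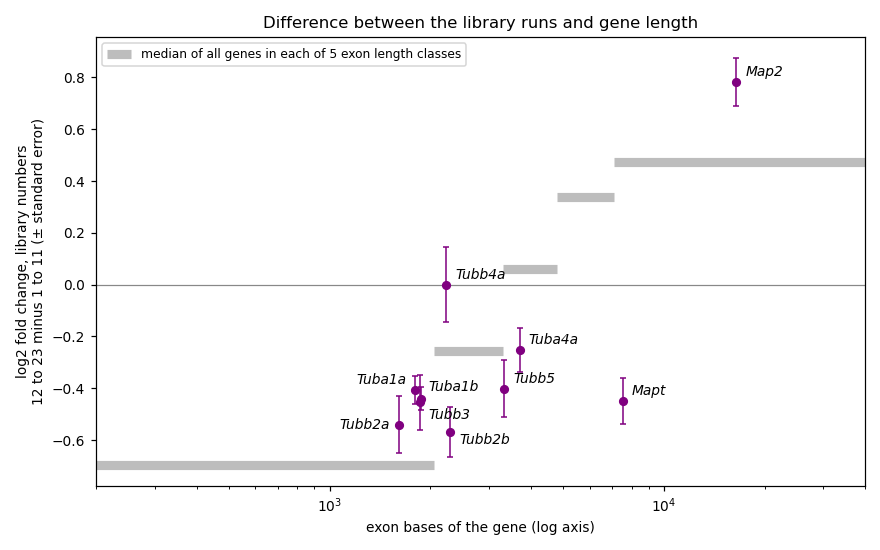
Log2 fold change of numbers 12 to 23 minus 1 to 11 (with standard error) against exon bases on a log axis, for the 10 genes in purple; grey bars are the medians of all genes in each of 5 exon length classes, with the outer classes cut off at the edges of the plot. The medians climb from -0.70 to 0.47, Map2 sits highest at 0.78, and Mapt lies at -0.45 although the median of its class is 0.47.

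Levels can be compared between genes only per length. Per kilobase of exon, Tubb4a led with 514 ± 126 (CPM per kilobase, SD over 22 mice). It was followed by Tubb2a at 372, Tuba4a at 281, Tuba1a at 232, Tubb3 at 192 and Tubb5 at 182. A gap separated these from Tuba1b at 63.2, Mapt at 52.2, Map2 at 44.4 and Tubb2b at 16.3. Tubb4a lay above Tubb2a in 22 of 22 mice, and Tubb5 above Tuba1b in 22 of 22. Neighbours least separated were Mapt and Map2, with Mapt the higher in 14 of 22 mice, and Tubb3 and Tubb5, with Tubb3 the higher in 17 of 22. The order of Mapt and Map2 turned between the runs, with Mapt the higher in 10 of 10 mice of numbers 1 to 11 and in 4 of 12 of the others, while Tubb3 exceeded Tubb5 in 9 of 10 and 8 of 12.

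The order depended on how shared sequence was treated. Per 1000 stretches of 50 bases that no other annotated gene holds, a scale added after the data had been seen, Tuba1a came first with 976 ± 157 (SD, n = 22), ahead of Tubb2a at 761.5, Tubb4a at 526.4, Tuba4a at 419 and Tuba1b at 254. Tuba1a, which 3 genes exceeded per kilobase, was above Tubb2a in 22 of 22 mice on this scale. The scale also leaves out stretches shared with a gene at the same place in the genome, where a read can still align uniquely. That may hold for part of the 674 stretches Tuba1a shares with Gm49450 and of the 1330 Tuba4a shares with Stk16. The levels of both genes on this scale may therefore be too high. Tubb3, Tubb5, Mapt, Map2 and Tubb2b kept their order, at 192, 180.3, 49.8, 43.2 and 26.0. Per kilobase of the transcript with the longest coding sequence, the other added scale, Tubb4a led again with 514. Tubb5 at 229 was then above Tubb3 at 192 in 22 of 22 mice, the reverse of the order per kilobase of exon. Mapt stood at 175 and Map2 at 117. The Map2 transcript used holds 6258 bases, while the 24 annotated ones span 16449 exon bases. The Mapt transcript used holds 2250 bases, 2247 of them coding, while the gene has 7531 exon bases. Reads from all exons were counted, so the rise of Mapt on this scale reflects the short transcript and its order against Map2 is not settled.

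**Figure D4:**
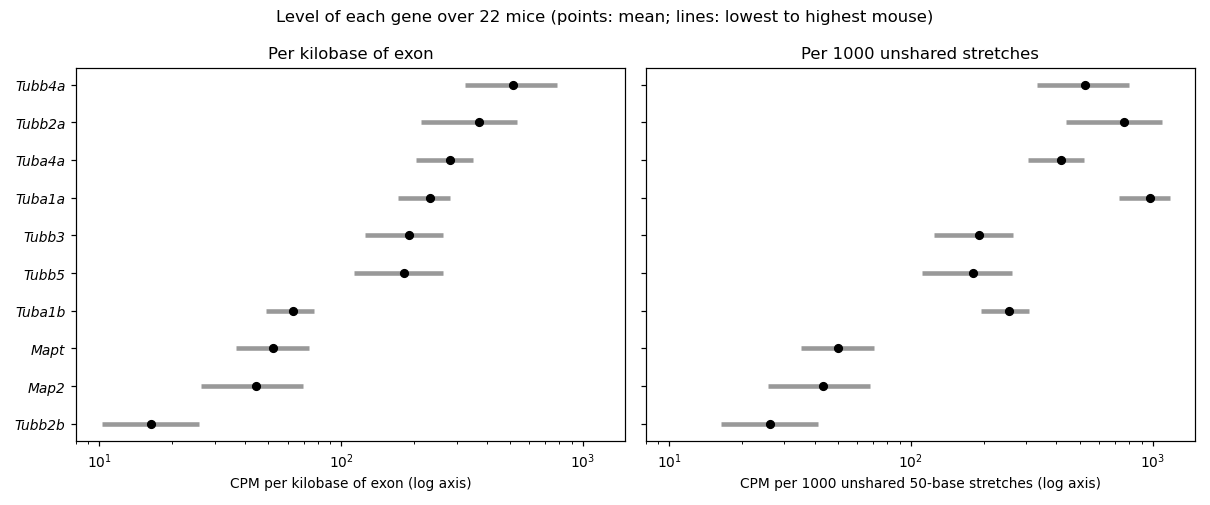
Level of each gene over the 22 mice on log axes, as CPM per kilobase of exon (left) and as CPM per 1000 unshared stretches of 50 bases (right); points are means and lines run from the lowest to the highest mouse. Tubb4a leads on the left with 514 and Tuba1a on the right with 976, and Tubb2b is lowest on both.

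The isotype make-up of a class is the share of each gene in the length-scaled reads of that class. Among the alpha tubulins, Tuba4a held 48.1% ± 3.56, Tuba1a 39.8% ± 2.81 and Tuba1b 10.8% ± 0.978 (SD, n = 22), and the remaining Tuba8 and Tuba1c held 1.17% and 0.0817%. Among the beta tubulins, Tubb4a held 37.5% ± 5.67, Tubb2a 26.9% ± 3.14, Tubb3 13.9% ± 1.05, Tubb5 13.2% ± 1.03, Tubb4b 7.07% ± 0.690 and Tubb2b 1.25% ± 0.490 (SD, n = 22). Without scaling by length, Tuba4a held 65.2%, Tuba1a 26.3% and Tubb5 20.5%, and on the scale of unshared stretches Tuba1a stood above Tuba4a, so the make-up of the alpha class is not settled by these counts. Between the groups the share of Tubb4a was 38.2% ± 7.14 in controls and 36.6% ± 3.35 in stimulated mice (SD), and without control 9 the other 11 controls also averaged 36.6%. That of Tubb5 was 12.9% ± 1.29 and 13.6% ± 0.439, and without control 9 the other 11 controls averaged 13.2% ± 0.817. Within numbers 12 to 23 Tubb4a held 43.2% ± 6.92 in controls and 38.5% ± 2.77 in stimulated mice, and without control 9 the 5 other controls averaged 40.8% ± 4.09. Within 1 to 11 it held 33.1% ± 1.88 and 33.9% ± 1.92 (SD). Between the runs the share of Tubb4a was 33.4% ± 1.82 in numbers 1 to 11 and 40.9% ± 5.59 in 12 to 23. Its highest share, 55.2%, belonged to control 9.

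Beyond group and run, the 10 genes differed in how much they varied between mice. With the mean of each group within each run removed, the SD of log2 CPM was 0.07 for Tuba1b and 0.09 for Tuba1a, and 0.804% of the 1617 and 7.51% of the 373 genes of like mean level varied less. At the other end, it was 0.38 for Tubb4a, above that of 92.2% of the 77 genes of like level. The other 7 genes lay between 0.21 (Tuba4a) and 0.28 (Tubb5). The 2 genes that share most of their sequence were thus the steadiest of the 10.

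Across mice the genes fell into 3 sets, given as a description with no test, since all values of a mouse come from 1 library and share its depth and scaling. The first set held Tuba4a, Tubb2a, Tubb3, Tubb4a, Tubb5 and Mapt, whose residual log2 CPM correlated at 0.71 to 0.97 in every pair (Pearson r, n = 22). The closest pairs were Tubb2a with Tubb5 (r = 0.972, Spearman rho 0.977, 0.959 without the 2 farthest mice) and Tuba4a with Tubb3 (r = 0.965, rho 0.951, 0.951 without the 2 farthest mice). The second set held Map2 and Tubb2b (r = 0.837, rho 0.841), which ran against the first, as for Tubb4a with Map2 (r = -0.920, rho -0.903) and Tuba4a with Tubb2b (r = -0.837, rho -0.824). The third held Tuba1a and Tuba1b (r = 0.789, rho 0.758), which had r between -0.12 and 0.48 with all other members over the 22 mice. The values differed between the runs. The pairs of the first set lay between 0.78 and 0.97 in numbers 1 to 11, and in 12 to 23 they went down to 0.473 for Tubb2a with Tubb4a and 0.590 for Tubb4a with Tubb5. Tubb4a and Map2 had r = -0.971 in numbers 1 to 11 and -0.888 in 12 to 23. Tuba1a and Tuba1b had 0.855 in numbers 12 to 23 and 0.595 in 1 to 11, where Tuba1a was closer to Tubb2a (0.678) and Tubb3 (0.623) and ran against Tubb2b (-0.601). Without the 2 farthest mice, Tuba1a had 0.637 with Tubb2a and 0.711 with Tuba1b.

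**Figure D5:**
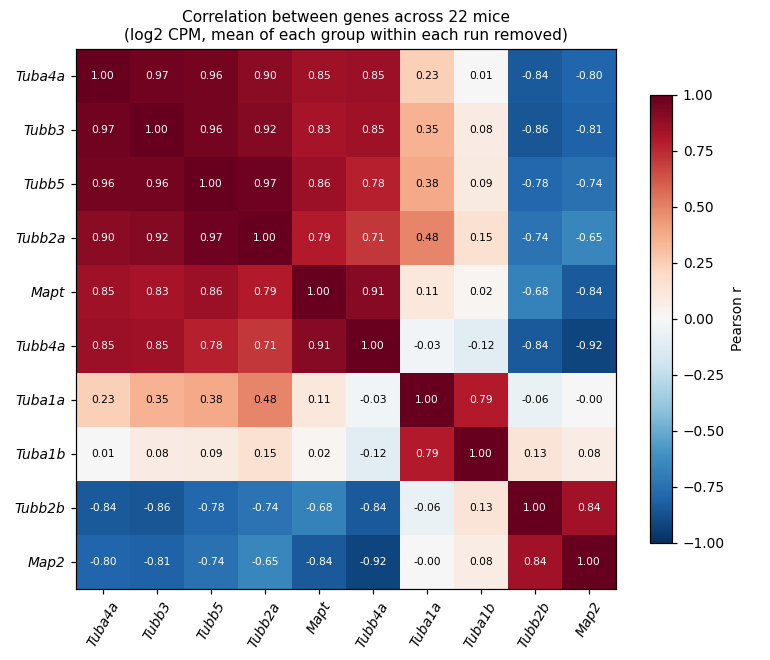
Pearson r between each pair of the 10 genes over 22 mice, computed on log2 CPM after the mean of each group within each run was removed; red is positive and blue negative. The upper left block of 6 genes runs from 0.71 to 0.97, Tubb2b and Map2 are negative to it (-0.65 to -0.92), and Tuba1a and Tuba1b correlate at 0.79 with each other.

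The mice behind this pattern can be named. Within numbers 1 to 11, controls 1 and 2 had the lowest Tubb4a (723 and 736 CPM) and the highest Map2 (678 and 663 CPM). Controls 4, 5 and 6 had nearly the opposite, with Tubb4a at 1404, 1364 and 1396 CPM and Map2 at 485, 462 and 486 CPM. These mice belong to the same group and the same run, and the gap between them in Tubb4a was wider than that between the group means of 1118 and 1177 CPM. The summed astrocyte markers were 7716 and 7631 CPM in controls 1 and 2 and 4026, 3785 and 4042 CPM in controls 4, 5 and 6, and the summed neuron markers 9758 and 9918 against 12077, 11116 and 11599 CPM.

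The same markers followed the sets over all mice. Residual Tubb4a correlated with the neuron marker score at 0.86, Tuba4a at 0.79, Tubb3 at 0.76, Mapt at 0.73, Tubb5 at 0.64 and Tubb2a at 0.52, and these 6 genes of the first set correlated with the astrocyte score between -0.82 and -0.89 (Pearson r, n = 22, no test). Tubb2b correlated with the microglia score at 0.89 and the astrocyte score at 0.86, and Map2 with the neuron score at -0.78, although Map2 is itself used to mark neurons. Tubb4a, which oligodendrocytes also use, correlated with the oligodendrocyte score at 0.21 (rho 0.023). Tubb2a was at -0.43 (rho -0.48), Tubb5 at -0.37 (rho -0.44) and Tuba1a at -0.34 (rho -0.17). In numbers 12 to 23, control 9 had both the highest Tubb4a (1735 CPM) and the highest summed oligodendrocyte markers (20043 CPM), while control 11, with 14745 CPM of those markers, had a Tubb4a of 1030.1 CPM. The part of the tissue's cell make-up in these relations was not tested.

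The genes most like each member were ranked by residual Pearson r over 22 mice among 11651 genes with a mean of at least 5 CPM. Tuba1a was most like Wrb (0.913), with Tac1 at 0.851, and Tuba1b most like Erp29 (0.836), Mrps25 (0.823) and Cops5 (0.813). Tuba4a led to Asns (0.982), Gorasp2 (0.981) and Ppp2r1a (0.978). Tubb2a and Tubb5 shared their first 2 genes, Tmem130 (0.985 and 0.980) and Ptk2b (0.966 and 0.980), followed by Zwint (0.963) for Tubb2a and Baiap2 (0.978) for Tubb5. Tubb3 was most like Aldoa (0.983), a glycolytic enzyme gene, Snap47 (0.975) and Atxn10 (0.975).

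Tubb4a was most like Phyhipl (0.976), Ina (0.967), which codes for the neuronal intermediate filament alpha-internexin, and Slu7 (0.958), and Mapt most like Cdk11b (0.963), Prrt1 (0.957) and Snrpa (0.955). Map2 was most like Apc (0.952), whose product binds microtubule ends, Ctnnd2 (0.944) and Dlg2 (0.939), and Tubb2b most like Mtss1l (0.947), Marf1 (0.943) and Shank1 (0.938). Some of these neighbours depended on the removal of run means. With group means alone removed, the first neighbour kept a high r for Tubb3 (Aldoa, 0.988), Tuba1b (Erp29, 0.984), Map2 (Apc, 0.966), Mapt (Cdk11b, 0.956) and Tubb4a (Phyhipl, 0.951). It dropped to 0.581 for Tubb5, 0.556 for Tuba4a and 0.461 for Tubb2a, and turned to -0.412 for Tubb2b and -0.543 for Tuba1a.

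The other genes of the pathway comprised 105 listed genes in 8 lists, of which 99 were tested. At an adjusted p under 0.05, 0 of them differed between the groups (edgeR; 0 also by DESeq2 and limma voom). At an unadjusted p under 0.05, 11 (11.1%) were placed, 7 higher and 4 lower in stimulated mice, beside the background of 11.5%. Of the 99 genes 59 had positive and 40 negative differences, with a median of 0.04 on the log2 scale. Over all genes 52.6% were positive, with a median of 0.01, and the same share stands beside the counts per list below. Between the runs 77 (77.8%) differed at an adjusted p under 0.05, 51 higher and 26 lower in numbers 12 to 23, beside the background of 68.1%, 33.7% higher and 34.3% lower.

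Of the 8 other alpha and beta tubulins listed 4 were tested, and these had positive differences, with 1 at an unadjusted p under 0.05, Tubb4b, a widely used beta tubulin. It averaged 194 ± 54.3 CPM in controls and 212 ± 33.1 CPM in stimulated mice (SD), a log2 difference of 0.19 ± 0.09 (SE, adjusted p = 0.422). Of the 12 genes of gamma, delta and epsilon tubulin and the ring complex that starts microtubules, 4 were positive and 8 negative, with Tubg2 at 0.11 ± 0.05 (SE, adjusted p = 0.385). The most abundant of this list after Tubg2, Mzt1, a small ring complex subunit, was at -0.20 ± 0.11 (SE, adjusted p = 0.481).

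Of the 14 other structural associated proteins tested 6 were positive and 8 negative. Map7, which recruits kinesin-1 to microtubules, had a log2 difference of -0.22 ± 0.08 (SE, adjusted p = 0.341) and Map4, a relative of Map2 and Mapt, one of -0.17 ± 0.06 (SE, adjusted p = 0.349), both at an unadjusted p under 0.05. Map1b and Map1a, the most abundant of the list per kilobase, were at -0.01 and -0.11. Of the 17 plus-end and minus-end binding proteins 11 were positive, with 1 gene at an unadjusted p under 0.05, Clasp2 at -0.11 ± 0.05 (SE, adjusted p = 0.375), whose run difference was 1.64. The abundant Clip3 and Dctn1, a dynactin subunit, were at 0.08 and 0.07.

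Stathmins bind free tubulin dimers and promote disassembly, and severing enzymes break filaments. Of the 12 tested 6 were positive, with Stmn2 at 0.24 ± 0.09 (SE, adjusted p = 0.349) and Stmn3 at 0.17 ± 0.08 (SE, adjusted p = 0.411) at an unadjusted p under 0.05, and Stmn4 at 0.19 ± 0.10 (SE, adjusted p = 0.495). Stmn3 averaged 825 ± 263 CPM in controls and 877 ± 259 CPM in stimulated mice (SD over both runs, which differed by -0.79 on the log2 scale). Of the 19 tubulin-modifying enzymes 13 were positive. Tpgs1, a subunit of the polyglutamylase that builds side chains on the acidic tails, was at 0.16 ± 0.06 (SE, adjusted p = 0.364), its catalytic partner Ttll1 at 0.16 ± 0.10 (SE, adjusted p = 0.550), Ttll12 at 0.16 ± 0.08 (SE, adjusted p = 0.416) and Ttll5, another glutamylase, at -0.17 ± 0.08 (SE, adjusted p = 0.429).

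Of the 8 tubulin folding cofactors 6 were positive. Tbcb, which handles alpha tubulin during folding, had the smallest unadjusted p of the named pathway genes, 0.00354, with a log2 difference of 0.17 ± 0.05 (SE, adjusted p = 0.329), and Tbcc was at 0.14 ± 0.08 (SE, adjusted p = 0.490). Of the 13 kinases of tau and MAP2 9 were positive and 0 had an unadjusted p under 0.05. The most abundant, Cdk5 and Gsk3a, were at 0.09 ± 0.05 each (SE, adjusted p = 0.449 and 0.503).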

How the data were processed

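Reads were trimmed by the authors (cutadapt 1.10), aligned to mm10 (STAR 2.5.3a) and, where the alignment was unique, counted per gene of Ensembl 95 (htseq-count 0.6.1p1). The libraries came from full-length cDNA amplified from 5 ng of RNA, a protocol that does not mark strand, and carry no molecular identifiers, so counts measure reads. The authors deposited whole-number counts per mouse, which were tested here. They also deposited counts divided by size factors (a signal on a relative scale) and their own fold changes and p-values, and neither was used.

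Mice were assigned to groups by their labels. The methods fitted RNA integrity and batch beside the group. The labels give neither, so the run of library numbers (1 to 11, 12 to 23) was fitted in their place. Whether it equals the batch is not given in the sources used here, and the study's own list of batches was not used here. The counts were fitted with edgeR 4.0.16 in R 4.3.3 (TMM, glmQLFit, glmQLFTest, group and run) on 17524 genes (10 mice or more with 10 counts or more), two-sided, with Benjamini-Hochberg adjustment over all of them. Standard errors come from the fitted weights and the moderated quasi-dispersion. The fit was tested on simulated data first. Alternatives were group alone, DESeq2 size factors, the Wald test of DESeq2 1.42.0, voom with quality weights of limma 3.58.1, other count minimums, isotype shares without length scaling, the replicate number as a block, each run alone, and leaving out controls 9 and 11.

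All 231 pairs of libraries differed by more than sampling noise (mean chi-square per gene at least 10.0). Gene coordinates, exon bases and shared 50-base stretches are from GENCODE M21 (GRCm38), where 37772 of 37786 gene identifiers were found. Residuals are log2 CPM minus the mean of each group within each run. Genes of like level lie within a fixed distance of the member on the log2 scale. Marker scores are means of the residuals over the genes of a list that passed the count minimum. Of the 8 marker lists, oligodendrocyte progenitor markers had a median log2 group difference of -0.14 (7 of 7 lower), microglia markers 0.08 (1 of 8 lower), endothelial and mural markers -0.13 (8 of 8 lower), choroid plexus and ependymal markers -1.00 (4 of 4 tested lower) and red cell markers 0.02 (0 of 5 lower), with 0 genes at an adjusted p under 0.05 in any list (edgeR). Without controls 9 and 11 the progenitor median was -0.030 (5 of 7 lower) and that of choroid plexus and ependymal markers -0.64.

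The members, lists, tests and alternatives were chosen with earlier results of these data known. The text names all 10 members, the 3 genes most like each, and, of each other pathway list, the 2 genes with the highest mean CPM per kilobase and up to 4 with the smallest p among those at an unadjusted p under 0.05. Protein sequences were not used here, and 1 of the genes most like Tuba1a and 2 coding ends are not reported here.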

Additional observations from a re-analysis of the deposited data

How the results depend on the processing

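The count of members at an unadjusted p under 0.05 between the groups, 3 in the fit with group and run, was 0 with group as the only term, 0 in library numbers 1 to 11 alone and 6 with limma voom, where Tuba4a and Tubb3 were added higher and Map2 lower. That of the pathway genes, 11, was 0 with group as the only term, 26 with limma voom, 7 with no count minimum (3687 of all 37571 genes) and 4 in numbers 1 to 11 alone. With the replicate block (numbers 1 to 10, controls 11 and 12 left out) the counts were 0 members and 7 pathway genes (1291 of all 17524 genes), and with the replicate block and the run 3 and 15 (1980). The numbers do not mark a shared animal, 8 of 10 same-numbered pairs correlated above 0.1 (mean 0.308, lowest -0.367), 3 controls correlated best with their own number, and the mean was 0.0511 with run means removed. The sign turned for Tuba1b (-0.020 with the replicate block and -0.017 in numbers 1 to 11 alone), Tubb4a (-0.011 in numbers 12 to 23 alone) and Map2 (0.027 with the replicate block), and for Tubb4a between the runs with DESeq2 size factors (0.0094), which made 2 genes higher there instead of 1. For the interaction, the 2 members at an unadjusted p under 0.05 became 1 with DESeq2 size factors and 0 with no count minimum, with 10 counts in every mouse and without controls 9 and 11. The sign of the interaction turned for Tubb2b (-0.050 with no count minimum and -0.035 with 10 counts in every mouse), Mapt (-0.036 and -0.031) and Tubb4a (0.036 without controls 9 and 11). The causes were not tested. The other alternatives left each member's direction and side of the adjusted threshold as in the fit with group and run. The groups hold 12 and 10 mice and no mouse was left out singly from a fit, including that of numbers 1 to 11 alone (6 and 4 mice). Depth was not limiting for the members, which had at least 517 counts in every mouse.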
